A study of Mus musculus with 32 samples.

Results

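Mouse embryonic stem (ES) cells in which Nanog was knocked down were compared with cells that carried the empty vector. Of the 32 samples of the series, 10 belong to this comparison: the 5 arrays titled Nanog RNAi and the 5 arrays titled parental vector, taken by their titles, across 45037 probe sets. All cells were E14TG2a, an established mouse ES cell line, transfected with Lipofectamine 2000 and then selected with 1 µg/ml puromycin for 3 days from 24 h after transfection. One group received a construct expressing RNA interference (RNAi) against Nanog, and the other 2 µg of pSUPER-puro, a plasmid that drives short hairpin RNAs and carries puromycin resistance, without a hairpin. Puromycin and the transfection reagent were therefore shared by both groups, but the labels give no amount for the Nanog construct. A hairpin was present in the Nanog RNAi cells alone, and no group with an unrelated hairpin is used here. The 4 arrays of Pou5f1 RNAi cells entered the same fit, which then shared its estimate of the spread, and served as a further comparison. Labels do not say that arrays of a group came from separate cultures, so p-values measure the spread between arrays, which may be technical.

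Nanog is a homeodomain transcription factor of the inner cell mass and of ES cells. It works with Oct4, the product of Pou5f1, and with Sox2 on many shared enhancers, and it holds back differentiation while ES cells can still be kept without it. ES cells with little Nanog are known to be prone to differentiate, in particular towards primitive endoderm.

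Levels were log2 values, so a difference of 1 is a 2-fold change, and they are not comparable between probe sets. Pairs of arrays correlated at 0.993 to 0.996 within Nanog RNAi and at 0.990 to 0.995 within vector, against 0.982 to 0.990 between the groups (Pearson's r over probe sets, a description). In a principal component analysis of the 10 arrays the first component (45.11% of variance) separated Nanog RNAi from vector, and the second (17.16%) separated arrays numbered 4 and 5 from arrays numbered 1 to 3 in both groups. Labels name no batch for these numbers. Nanog RNAi replicate 5 stood apart on the first component, with a score of 39.4 against 23.9 to 26.9 on the other Nanog RNAi arrays. Without it 6355 probe sets were called, 3328 higher and 3027 lower, against 7017 with all arrays. With arrays 1 to 3 alone 5482 probe sets were called, 4867 of them among the calls of all arrays, and with arrays 4 and 5 alone 1592 were called, 1568 of them among those calls. In neither case was a probe set called in opposite directions.

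Nanog (probe set 1429388_at) measured 9.16, 9.14, 9.26, 9.40 and 9.47 on the Nanog RNAi arrays, and each of these was below every vector array. The means were 9.29 ± 0.15 in Nanog RNAi cells and 11.09 ± 0.08 in vector cells (SD, n = 5 each), a change of -1.81 ± 0.08 (adjusted p = 2.1e-12) by limma with Benjamini-Hochberg adjustment over all probe sets. Its change was -1.85 on arrays 1 to 3 and -1.74 on arrays 4 and 5. Pou5f1 (1417945_at) measured 11.24, 11.21, 11.18, 11.47 and 11.51 on the Nanog RNAi arrays, against 11.34, 11.31, 11.46, 11.51 and 11.48 on the vector arrays. The groups overlapped, with means of 11.32 ± 0.16 in Nanog RNAi cells and 11.42 ± 0.09 in vector cells, and its change of -0.10 ± 0.10 (adjusted p = 0.61) was not called.

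A probe set was called at an adjusted p under 0.05 throughout. In all, 7017 probe sets were called, which is 15.6% of those tested, 3963 of them higher (8.8%) and 3054 lower (6.78%) after Nanog RNAi. Only 493 (1.09%) changed by at least 1 log2, 345 higher and 148 lower, and 57 by at least 2 log2, 53 higher and 4 lower. Calls were more frequent at high levels, from 1.51% in the dimmest of 5 equal bins of probe sets by mean level to 33.2% in the brightest. Counted by gene, each by its probe set of highest mean, calls covered 3792 of 18193 genes (20.8%). Of these 2197 were higher (12.1% of all genes) and 1595 lower (8.77%). The median change over all genes was -0.02. Nanog RNAi and vector arrays did not overlap, in either direction, at 11.3% of all probe sets and for 15.8% of all genes. These shares are the background for the counts of gene groups below, in which a gene is likewise measured by its probe set of highest mean. They take no account of level, so they are a rough guide for groups of mostly bright or mostly dim genes. The gene groups share some genes and were chosen with earlier results of these data known.

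**Figure D1:**
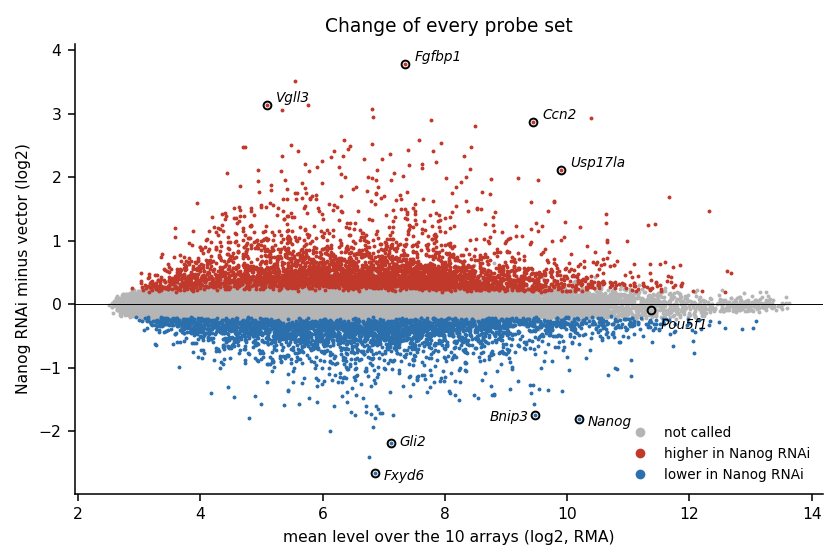
Nanog RNAi minus vector (log2, vertical axis) of each of the 45037 probe sets by its mean level over the 10 arrays (log2, horizontal axis), with called probe sets in red (higher) and blue (lower) and 9 genes circled. Of the 57 probe sets called with a change of at least 2 log2, 53 lie above the zero line and 4 below it.

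The 30 genes with the largest rises went up by 2.06 to 3.78, and the 30 with the largest falls went down, with changes of -2.67 to -1.40. Each of these is given by its most changed probe set, and genes whose groups overlapped were left out. Of the rising genes 13 have further probe sets, of which at least 1 was called the same way in 10 genes; of the falling genes 16 have further probe sets, and this held in 13. No further probe set was called the opposite way in either set. The level of Fgfbp1, a secreted carrier of fibroblast growth factors, was 9.11, 9.24, 9.08, 9.40 and 9.38 on the Nanog RNAi arrays, against 5.25, 5.72, 5.51, 5.38 and 5.44 on the vector arrays. All 5 Nanog RNAi arrays lay far above the vector arrays, a 13.7-fold difference. The rises took in the mitochondrial arginase Arg2 (2.32 ± 0.18), which is also counted among the genes of the 2-cell embryo below. Others were Mep1b (2.44 ± 0.09), the beta subunit of the protease meprin, and enzymes of lipid handling. These were Gpat3 (2.33 ± 0.12), which starts triglyceride synthesis, Mgll (2.10 ± 0.15), the monoacylglycerol lipase, and the oxysterol hydroxylase Cyp7b1 (2.06 ± 0.12). Bhmt (2.21 ± 0.14), which methylates homocysteine from betaine, Arhgef26 (2.14 ± 0.08), a guanine nucleotide exchange factor, and Ccno (2.33 ± 0.14), a cyclin known from multiciliated cells, rose as well. Probe sets of 1 gene could differ in size, as those of Dst, a cytoskeletal linker, did with 2.50 ± 0.13 at the most changed and 0.79 ± 0.08 at the brightest probe set.

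Among the largest falls were Fxyd6 (-2.67 ± 0.11), a regulator of the sodium pump, and A2m (-2.41 ± 0.13), a protease inhibitor. Further down stood Fut9 (-1.47 ± 0.10), the fucosyltransferase that makes the ES cell antigen SSEA-1. It measured 3.93, 3.85, 3.75, 3.64 and 3.94 on the Nanog RNAi arrays, against 5.27, 4.93, 5.34, 5.41 and 5.53 on the vector arrays. The groups did not overlap, which was a condition for entering this set. Mras (-1.60 ± 0.11), a Ras family GTPase, Mical1 (-1.58 ± 0.16), an actin-oxidising enzyme, Slc6a15 (-1.45 ± 0.13), a neutral amino acid transporter, and Clybl (-1.55 ± 0.11), a mitochondrial lyase, fell too. A pair of muscle genes was among them, Actn3 (-1.66 ± 0.12), an actinin of the sarcomere, and Mymx (-1.43 ± 0.11), a small fusion protein. Inhbb fell by 1.80 on the log2 scale at its most changed probe set but had a change of -0.32 ± 0.10 at its brightest one, a call that was lost without Nanog RNAi replicate 5 (-0.25), vector replicate 1 (-0.30) or vector replicate 4 (-0.25). Aldoc fell at 1 probe set (-1.61 ± 0.11), whereas its other had a change of -0.06 ± 0.08 (adjusted p = 0.72).

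Markers of ES cells fell in part, while most trophectoderm markers rose. Of 10 ES cell markers 6, among them the RNAi target Nanog, fell and 1, Sall4, rose. Their summed log2 level was 105.2 to 106.4 on the Nanog RNAi arrays and 110.3 to 111.6 on the vector arrays, with Pou5f1, Utf1 and Dppa5a not called. The fall of Nanog (-1.81), set by the knockdown, is part of this difference. Such sums add levels of unlike probe sets and only describe the arrays. Of 9 trophectoderm markers 8 rose (summed level 57.9 to 62.3 against 50.1 to 51.1), and of 9 primitive endoderm markers 3 rose and none fell (50.6 to 52.8 against 49.1 to 49.9; limma, with 1 lower at an unadjusted p under 0.05). Of the trophectoderm markers, the keratin genes Krt8 (2.80 ± 0.09) and Krt18 (2.33 ± 0.10) rose most. They hold much of the difference in that sum. Feeder fibroblast markers split, with 1 higher and 1 lower of 9 (37.0 to 37.4 against 36.3 to 37.8). These are bulk samples, in which a change in the number of cells of a type and a change in RNA per cell cannot be told apart.

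Of 27 pluripotency transcription factors 10 fell and 3 rose, with a median change of -0.14. Apart from Nanog, the factors that fell included Prdm14, which keeps ES cells naive, Klf4, Nr0b1, Esrrb and Sall1. Klf4, a reprogramming factor, averaged 9.30 ± 0.18 in Nanog RNAi cells and 10.20 ± 0.19 in vector cells (SD, n = 5 each). The lowest vector array was above the highest Nanog RNAi array, and the change was -0.90 ± 0.10 (adjusted p = 1.1e-06). Prdm14 measured 5.51, 5.54, 5.68, 5.43 and 5.82 on the Nanog RNAi arrays, against 6.40, 6.29, 6.68, 6.68 and 6.98 on the vector arrays. It was lower on all Nanog RNAi arrays, with a change of -1.01 ± 0.11 (adjusted p = 1.2e-06). Nr0b1 (-0.94 ± 0.09), Sall1 (-0.75 ± 0.08) and Esrrb (-0.68 ± 0.10) fell too, as did Zfp42 (-0.59 ± 0.07), also called Rex1, and, by less, Sox2 (-0.32 ± 0.08). Klf2 (-0.13 ± 0.09), Klf5 (-0.25 ± 0.13), Tbx3 (-0.13 ± 0.07) and Tfcp2l1 (-0.06 ± 0.08), other factors of the naive state, were not called, although Klf2 (-0.30) and Klf5 (-0.49) were called with arrays 1 to 3 alone. Myc (0.90 ± 0.09), Sall4 (0.46 ± 0.07) and Foxd3 (0.30 ± 0.09) rose, though Foxd3 was not called without vector replicate 4 (0.28).

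Surface and cytoplasmic genes used as ES cell markers moved in both directions, with 11 of 24 lower and 6 higher. Cobl (-1.45 ± 0.10), an actin nucleator, Tcl1 (-1.43 ± 0.10), a cofactor of Akt, Eras (-1.30 ± 0.08), a constitutively active Ras, Jam2 (-0.70 ± 0.07) and the adhesion molecule Pecam1 (-0.58 ± 0.13) fell. Spink1 (0.97 ± 0.13), Dppa3 (0.91 ± 0.08) and Dppa2 (0.82 ± 0.08) rose. In the pathway of LIF, the cytokine that maintains mouse ES cells, the receptor gene Lifr fell (-0.56 ± 0.07 (adjusted p = 7.6e-06)) while Jak1 (0.48 ± 0.10), Tyk2 (0.50 ± 0.07) and Ptpn11 (0.58 ± 0.08) rose, and 6 members were higher and 2 lower of 21. The STAT3 target Socs3 (-0.17 ± 0.08) and Stat3 itself (0.16 ± 0.10) were not called.

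Genes of the 2-cell embryo, transcribed when the mouse genome is first switched on and in a small share of ES cells, mostly rose. Like the others, this list was chosen with earlier results of these data known. It holds Usp17la, Pramel18, Zfp352, Arg2 and Ubtfl1, which are among the 30 largest rises. Of 18 measured members 14 rose and none fell (limma; none lower at an unadjusted p under 0.05 either), with a median change of 1.37. Usp17la, a deubiquitinase gene, measured 10.89, 10.96, 10.91, 10.97 and 11.06 on the Nanog RNAi arrays, against 8.73, 8.97, 8.77, 8.86 and 8.90 on the vector arrays. It was higher on all 5 Nanog RNAi arrays, by 2.11 ± 0.07 (adjusted p = 3.2e-14). Ubtfl1, an HMG-box gene of the preimplantation embryo, measured 6.83, 6.98, 6.88, 6.14 and 7.21 on the Nanog RNAi arrays, against 4.62, 3.93, 4.38, 4.29 and 4.73 on the vector arrays. Its groups did not overlap, although Nanog RNAi replicate 4 was lower than the other Nanog RNAi arrays. The Prame-like genes Pramel18 (2.59 ± 0.10), Pramel7 (2.01 ± 0.12) and Pramel6 (1.47 ± 0.14), the 2-cell genes Tcstv1 (1.54 ± 0.11) and Tcstv3 (1.86 ± 0.14), Zfp352 (1.66 ± 0.08) and Tdpoz1 (1.06 ± 0.10) rose as well. Dppa4 (-0.03 ± 0.09), Rfpl4 (0.02 ± 0.07), Eif1a (-0.06 ± 0.08) and Lgals4 (-0.06 ± 0.10) were the members not called. Usp17-like, Tcstv and Prame-like genes have near-identical copies, so a probe set may read several of them. Set directly against Pou5f1 RNAi cells, 14 of the 18 were higher and 2 lower after Nanog RNAi, where 37.4% of all genes were called in either direction. The lower ones were Gata2 (-2.32 ± 0.14 (adjusted p = 2.8e-11)), which is also a trophoblast factor, and Eif1a (-0.25 ± 0.09 (adjusted p = 0.037)).

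**Figure D2:**
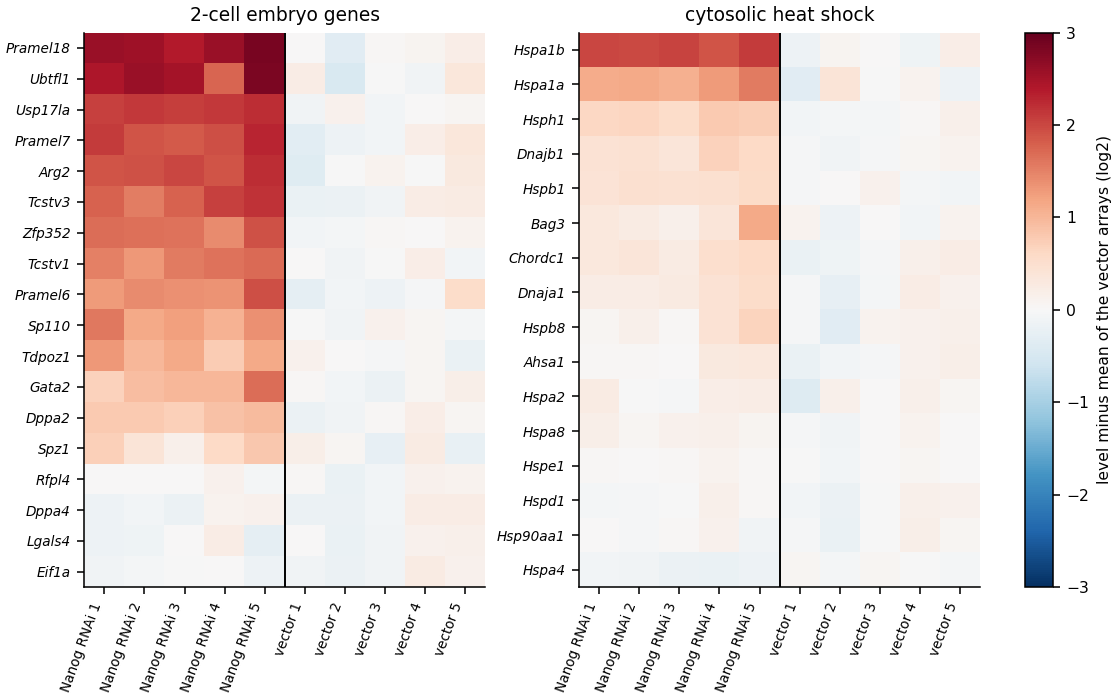
Level minus the mean of the 5 vector arrays (log2, colour) for 18 genes of the 2-cell embryo (left) and 16 cytosolic heat shock genes (right), ordered by change, on each Nanog RNAi array (left of the black line) and each vector array (right of it). The 14 called 2-cell genes are red to pale red on the Nanog RNAi arrays, whereas the 8 heat shock genes that were not called are near white on most arrays.

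Of 21 trophoblast transcription factors 11 rose and 1 fell. Without Nanog RNAi replicate 5, which was the highest array for Gata3 and Cdx2, 9 rose. Gata3, a driver of the trophoblast, measured 4.99, 5.45, 5.31, 4.41 and 5.55 on the Nanog RNAi arrays, against 4.32, 4.17, 3.89, 3.89 and 3.90 on the vector arrays. Each Nanog RNAi array was above each vector array, but the Nanog RNAi values were widely spread and the change was 1.11 ± 0.18 (adjusted p = 0.00012). Cdx2, the trophectoderm homeobox gene, measured 4.72, 4.60, 4.62, 4.69 and 5.19 on the Nanog RNAi arrays, against 4.01, 4.06, 4.32, 4.25 and 4.17 on the vector arrays. It rose by less, 0.60 ± 0.11 (adjusted p = 0.00036). Id2 (1.45 ± 0.09), Ascl2 (1.08 ± 0.10), Gata2 (1.05 ± 0.13) and Msx2 (0.81 ± 0.13) were called higher, while Elf5 (-0.11 ± 0.10), Tead4 (0.10 ± 0.10) and Ets2 (-0.19 ± 0.11) were not called. Genes that act in the placenta rose without any called fall, 10 of 21, led by Mbnl3 (1.66 ± 0.10), Peg10 (1.66 ± 0.24), Nrk (2.28 ± 0.16), Plac1 (1.34 ± 0.13), Rhox6 (1.56 ± 0.14) and Rhox9 (0.86 ± 0.12). By limma 1 member was lower at an unadjusted p under 0.05.

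Keratins and some desmosomal genes rose among epithelial genes. Of 28 measured members 10 rose and 3 fell, with a median of 0.03. Krt8, a keratin of simple epithelia, measured 9.91, 9.82, 9.69, 9.78 and 10.26 on the Nanog RNAi arrays, against 6.92, 7.03, 7.15, 7.17 and 7.17 on the vector arrays. Its partner Krt18 (2.33 ± 0.10) rose with it, as did Krt7 (1.00 ± 0.18), Krt19 (0.81 ± 0.13), Dsp (1.12 ± 0.14), which anchors keratin to desmosomes, and Perp (2.22 ± 0.08), a desmosomal protein and p53 target. Cdh1 (0.03 ± 0.08), the E-cadherin gene, and Ocln (-0.07 ± 0.09) were not called, and Cldn6 (-0.84 ± 0.12) and Pkp2 (-0.64 ± 0.10) fell. The mesenchymal genes Snai1 (1.16 ± 0.14), a repressor of E-cadherin, Cdh2 (0.88 ± 0.16), which encodes N-cadherin, Thbs1 (1.94 ± 0.10) and Vim (0.60 ± 0.07) rose, 9 of 17 with none called lower (1 at an unadjusted p under 0.05, limma). Zeb1 (-0.11 ± 0.09) and Zeb2 (-0.01 ± 0.09) were not called.

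The largest rises included Ccn2, a target of YAP, the coactivator that the Hippo kinases hold out of the nucleus. Of 30 genes of the pathway and its targets 14 rose and 4 fell. Ccn2, a matricellular protein and a common YAP readout, measured 10.90, 10.83, 10.91, 10.83 and 10.94 on the Nanog RNAi arrays, against 7.87, 8.11, 8.12, 7.94 and 8.01 on the vector arrays. The groups were far apart, and the difference of 2.87 ± 0.07 (adjusted p = 8.7e-16) was 7.32-fold. Its relative Ccn1 measured 7.79, 7.59, 7.57, 7.75 and 8.04 on the Nanog RNAi arrays, against 5.90, 6.12, 6.15, 5.77 and 6.03 on the vector arrays. It rose by 1.76 ± 0.10 (adjusted p = 4.9e-11). Vgll3, a cofactor of the TEAD factors through which YAP binds DNA, measured 6.65, 6.56, 6.58, 6.51 and 6.97 on the Nanog RNAi arrays, against 3.55, 3.64, 3.43, 3.39 and 3.58 on the vector arrays. It rose by 3.14 ± 0.09, and Gadd45b (1.31 ± 0.10), Ptpn14 (0.94 ± 0.11) and the angiomotin genes Amotl2 (0.97 ± 0.07), Amot (0.81 ± 0.10) and Amotl1 (0.56 ± 0.09), whose products bind YAP, rose too. Yap1 (0.31 ± 0.08) and Wwtr1 (0.33 ± 0.08), which encodes TAZ, showed small rises, the kinase genes Lats1 (-0.25 ± 0.11) and Lats2 (0.15 ± 0.10) were not called, and Tead2 (-0.40 ± 0.08) and Myof (-0.49 ± 0.09) fell. Ankrd1 (0.23 ± 0.10) and Axl (0.12 ± 0.07), further targets, were not called.

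The TEAD recognition letters GGAATG were searched on both strands of promoter windows from RefSeq (GRCm38.p6), each 250 bases before to 50 bases after a gene's start. They were present in 9 of 14 windows of the risen members, 0 of 2 windows of the fallen members and 6 of 12 windows of members not called, against 14.7% of all 32851 windows. A window of each of the 2 genes below is shown, from RefSeq and read 5′ to 3′ on the gene's strand, with the match, here as its reverse complement, in capitals, so that the letters can be seen in their context.
Ccn1 promoter, chr3:145649936-145650235, minus strand: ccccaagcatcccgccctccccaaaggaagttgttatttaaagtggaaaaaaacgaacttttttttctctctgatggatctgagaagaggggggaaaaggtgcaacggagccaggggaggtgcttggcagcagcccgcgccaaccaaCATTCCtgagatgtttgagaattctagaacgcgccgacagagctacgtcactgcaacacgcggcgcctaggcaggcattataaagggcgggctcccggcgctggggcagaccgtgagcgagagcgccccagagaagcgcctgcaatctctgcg
Vgll3 promoter, chr16:65814939-65815238, plus strand: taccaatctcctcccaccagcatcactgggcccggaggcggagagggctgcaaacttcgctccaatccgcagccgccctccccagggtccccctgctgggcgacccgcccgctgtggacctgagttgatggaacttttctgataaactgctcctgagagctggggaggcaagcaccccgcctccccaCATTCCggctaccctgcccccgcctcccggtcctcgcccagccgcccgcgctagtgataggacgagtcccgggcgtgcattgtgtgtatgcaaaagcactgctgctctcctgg

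The Id genes, direct targets of bone morphogenetic protein (BMP) signalling whose products block bHLH factors, rose together. Id3 measured 9.34, 9.48, 9.43, 9.56 and 9.58 on the Nanog RNAi arrays, against 7.23, 7.32, 7.27, 7.27 and 7.62 on the vector arrays. Id1 measured 10.50, 10.52, 10.48, 10.73 and 10.72 on the Nanog RNAi arrays, against 8.85, 8.94, 8.92, 9.02 and 9.17 on the vector arrays. Id2 measured 9.54, 9.46, 9.56, 9.50 and 9.63 on the Nanog RNAi arrays, against 8.04, 7.77, 8.15, 8.30 and 8.19 on the vector arrays. In all 3 genes every Nanog RNAi array was above every vector array, and the rises were 2.14 ± 0.09 for Id3, 1.61 ± 0.08 for Id1 and 1.45 ± 0.09 for Id2. Of all genes, 15.8% had groups that did not overlap, in either direction. Of the other targets, Msx2 (0.81 ± 0.13), Msx1 (0.42 ± 0.11, not called after quantile normalization, 0.37) and Bambi (0.40 ± 0.09) rose and Smad7 (-0.30 ± 0.08) fell, with Smad6 (0.09 ± 0.09) and Id4 (0.03 ± 0.09) not called. Among ligands Bmp2 rose (0.35 ± 0.10) and Bmp4 fell (-0.41 ± 0.07), and the receptor gene Acvr1 rose (0.40 ± 0.11), a call lost without Nanog RNAi replicate 1 (0.34). The receptors Bmpr1a (-0.14 ± 0.07) and Bmpr2 (-0.06 ± 0.10) and the signal carriers Smad1 (0.13 ± 0.11) and Smad5 (0.10 ± 0.11) were not called. In total 8 of 26 members rose and 2 fell. The same Id genes had differences between Nanog RNAi and Pou5f1 RNAi of 0.11 ± 0.09 (adjusted p = 0.46) for Id3 and 1.75 ± 0.09 (adjusted p = 1.5e-12) for Id1.

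Nodal, a ligand that signals through activin receptors, rose by 1.01 ± 0.07 (adjusted p = 3.6e-09), and its coreceptor Tdgf1 (-0.31 ± 0.09) and receptor Acvr1b (-0.67 ± 0.09) fell, Tdgf1 without a call when vector replicate 4 was left out (-0.28). The feedback targets Lefty1 (0.12 ± 0.09) and Lefty2 (-0.13 ± 0.09) were not called, and the pathway held 5 rises and 6 falls among 22 members. In the Wnt pathway the inhibitor Dkk1 rose (1.37 ± 0.08), as did the ligand Wnt8a (0.93 ± 0.10), and the receptor Fzd5 (-1.22 ± 0.08) and the inhibitor Sfrp1 (-0.85 ± 0.09) fell, among 4 rises and 6 falls in 32 members. Of 13 hedgehog genes 3 fell and 1 rose. These were the effector Gli2 (-2.19 ± 0.12) and the targets Ptch1 (-0.63 ± 0.08) and Gli1 (-0.48 ± 0.10), with Gli3 (0.30 ± 0.08) higher.

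Fibroblast growth factor genes changed in opposite directions by ligand. Fgf4, the main ligand of ES cells, measured 7.98, 8.02, 7.98, 8.21 and 8.29 on the Nanog RNAi arrays, against 9.25, 9.42, 9.48, 9.63 and 9.80 on the vector arrays. It was lower on every Nanog RNAi array, with a change of -1.42 ± 0.10 (adjusted p = 2.9e-09). Fgf1 measured 6.68, 6.53, 6.60, 6.46 and 6.90 on the Nanog RNAi arrays, against 4.68, 4.69, 4.75, 4.93 and 4.96 on the vector arrays. It was higher on every Nanog RNAi array, by 1.83 ± 0.09 (adjusted p = 1.8e-11). Fgf17 (-1.16 ± 0.12) and Fgf15 (-0.82 ± 0.11) fell, and the receptor gene Fgfr2 (0.66 ± 0.08) rose. Targets and brakes of the ERK kinases divided, with Phlda1 (1.57 ± 0.12), Dusp4 (0.82 ± 0.11) and Dusp6 (0.66 ± 0.08) higher and Spry1 (-0.35 ± 0.09), Etv5 (-0.34 ± 0.07) and Il17rd (-0.50 ± 0.11) lower, for 10 rises and 8 falls in 26 members. Of 18 immediate early genes, which respond to serum and kinases within minutes, 6 rose and 2 fell. Jun measured 6.64, 6.53, 6.59, 6.37 and 6.92 on the Nanog RNAi arrays, against 4.65, 4.90, 5.33, 4.52 and 4.89 on the vector arrays. It rose by 1.75 ± 0.12 (adjusted p = 2.1e-09), while Egr1 measured 7.42, 7.43, 7.22, 7.30 and 7.57 on the Nanog RNAi arrays, against 8.74, 8.86, 8.89, 8.72 and 8.75 on the vector arrays. Egr1 fell, with a change of -1.40 ± 0.08 (adjusted p = 4e-11), as did Ier3 (-1.72 ± 0.09), and Fos (0.13 ± 0.10) and Junb (-0.07 ± 0.10) were not called.

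Most measured targets of the tumour suppressor p53 rose, the majority by small amounts. Of 31 measured targets 20 rose and none fell (1 lower at an unadjusted p under 0.05, limma), with a median change of 0.39. Perp measured 8.70, 8.81, 8.65, 8.73 and 8.82 on the Nanog RNAi arrays, against 6.46, 6.61, 6.31, 6.53 and 6.72 on the vector arrays. Pmaip1, the death gene also called Noxa, measured 9.61, 9.50, 9.56, 9.58 and 9.79 on the Nanog RNAi arrays, against 7.89, 7.80, 7.79, 7.83 and 8.02 on the vector arrays. Neither gene overlapped between groups, and their rises were 2.22 ± 0.08 and 1.74 ± 0.07. Cdkn1a, the cell cycle inhibitor p21, measured 8.25, 8.17, 8.20, 8.34 and 8.75 on the Nanog RNAi arrays, against 7.79, 8.02, 7.88, 7.63 and 7.90 on the vector arrays. Its change of 0.50 ± 0.10 (adjusted p = 0.0013) was smaller, and again no Nanog RNAi array overlapped a vector array. Mdm2 (0.87 ± 0.08), the ligase that degrades p53, the kinases Plk2 (1.07 ± 0.10) and Plk3 (1.37 ± 0.08), Phlda3 (1.07 ± 0.08) and Ddit4l (1.03 ± 0.08) rose, whereas Bbc3 (0.06 ± 0.09), Fas (-0.00 ± 0.07) and Ddb2 (-0.14 ± 0.10) were not called. Among 21 other apoptosis regulators 3 rose and 3 fell, and Bmf, a BH3-only gene, had the largest fall of them (-1.02 ± 0.10).

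Heat shock genes of the cytosol rose at the inducible end. Of 16 members 8 rose and none fell (1 lower at an unadjusted p under 0.05, limma). Hspa1b, an inducible Hsp70 gene, measured 9.34, 9.32, 9.38, 9.23 and 9.44 on the Nanog RNAi arrays, against 7.18, 7.42, 7.35, 7.21 and 7.55 on the vector arrays. It was higher on all Nanog RNAi arrays, by 2.00 ± 0.08 (adjusted p = 3.3e-13). Hspa1a (1.23 ± 0.12), its near-identical neighbour, cannot be read apart from it with certainty. Hsph1 (0.67 ± 0.07), the Hsp110 gene, the cochaperone Dnajb1 (0.51 ± 0.08) and the small heat shock protein Hspb1 (0.48 ± 0.07) rose too. The constitutive Hspa8 (0.13 ± 0.07), the mitochondrial Hspd1 (0.02 ± 0.08) and Hspe1 (0.04 ± 0.06), and Hsp90aa1 (0.01 ± 0.08) were not called. Chaperones of the endoplasmic reticulum had 8 rises and 1 fall in 22, with Dnajb9 (0.75 ± 0.07) and Hspa5 (0.29 ± 0.06) among the rises.

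The heat shock element GAANNTTC, the same on both strands, was in 8 of 12 RefSeq promoter windows of the 8 risen members and 3 of 7 windows of members not called, against 7.86% of all windows. By gene, it was in 7 of 8 risen members and 3 of 6 uncalled members with a window. The windows of 2 risen genes are printed to show the element, in capitals.
Hspa1b promoter, chr17:34959189-34959488, minus strand: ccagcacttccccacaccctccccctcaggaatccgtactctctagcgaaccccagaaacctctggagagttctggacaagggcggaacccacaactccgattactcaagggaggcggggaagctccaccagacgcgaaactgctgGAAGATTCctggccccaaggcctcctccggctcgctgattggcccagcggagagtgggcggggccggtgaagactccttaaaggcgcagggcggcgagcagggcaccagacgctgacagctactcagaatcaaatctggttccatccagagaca
Hsph1 promoter, chr5:149636287-149636586, minus strand: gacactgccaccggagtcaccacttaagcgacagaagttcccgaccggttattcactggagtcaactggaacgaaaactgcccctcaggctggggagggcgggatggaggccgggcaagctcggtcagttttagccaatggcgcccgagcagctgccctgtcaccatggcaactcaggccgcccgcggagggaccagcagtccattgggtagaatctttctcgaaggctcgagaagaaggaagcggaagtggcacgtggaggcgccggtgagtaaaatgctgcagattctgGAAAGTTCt

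Among the 47 lists other than cell type markers, glycolysis had the largest share of falls. Of 26 genes of glucose transport, glycolysis and lactate handling 16 fell and 1 rose, with a median change of -0.39. At the entry, the transporter Slc2a3 (-0.26 ± 0.07) and the hexokinase Hk2 (-0.50 ± 0.07) fell while Slc2a1 (0.12 ± 0.06) and Hk1 (-0.05 ± 0.10) were not called. Of the phosphofructokinase genes Pfkp (-1.28 ± 0.08) and Pfkl (-0.75 ± 0.08) fell and Pfkm (0.33 ± 0.07) rose. Tpi1, triose phosphate isomerase, measured 10.21, 10.29, 10.24, 10.36 and 10.45 on the Nanog RNAi arrays, against 11.26, 11.18, 11.42, 11.42 and 11.36 on the vector arrays. It fell on every Nanog RNAi array, with a change of -1.02 ± 0.07 (adjusted p = 2.6e-09). Downstream Pgk1 (-0.78 ± 0.08) and Pkm (-0.32 ± 0.08) fell, and Pgam1 (-0.16 ± 0.07) and Eno2 (-0.20 ± 0.10) were not called. Lactate handling fell at Ldhb (-1.37 ± 0.09), Ldha (-0.59 ± 0.08) and the exporter Slc16a3, which measured 6.25, 6.20, 6.15, 6.56 and 6.90 on the Nanog RNAi arrays, against 7.72, 7.98, 7.95, 7.50 and 7.85 on the vector arrays. The change of Slc16a3 was -1.39 ± 0.13. Pdk1, the kinase that holds pyruvate out of the mitochondria, fell too (-1.43 ± 0.10).

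**Figure D3:**
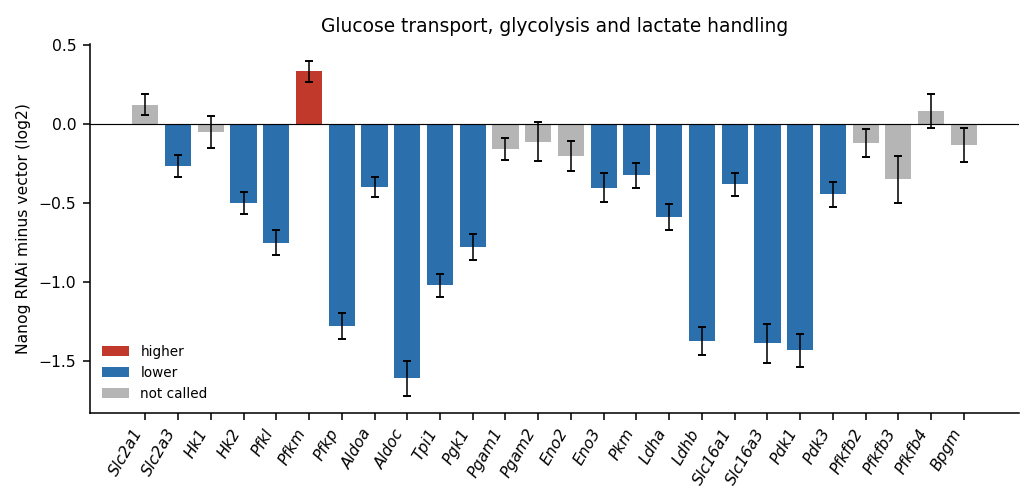
Nanog RNAi minus vector (log2, vertical axis) of 26 genes of glucose transport, glycolysis and lactate handling in the order of the pathway, with regulators at the right, and the standard error as bars. Blue bars are called lower (16 genes), the red bar called higher (Pfkm), and grey bars are not called.

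Many targets of the hypoxia factor HIF fell with the glycolytic genes, although others rose. Of 31 measured members 11 fell and 6 rose. Bnip3, a mitophagy receptor, measured 8.65, 8.61, 8.46, 8.56 and 8.76 on the Nanog RNAi arrays, against 10.24, 10.32, 10.31, 10.44 and 10.45 on the vector arrays. It was lower on every Nanog RNAi array, with a change of -1.75 ± 0.07 (adjusted p = 1.1e-12). The HIF prolyl hydroxylase Egln3 (-1.61 ± 0.12), Ankrd37 (-1.17 ± 0.12) and Bhlhe40 (-1.80 ± 0.10), a circadian repressor, fell also, and Adm (-0.54 ± 0.12) did so by less. P4ha2 (0.71 ± 0.12), a collagen prolyl hydroxylase, Gbe1 (0.52 ± 0.10) and Epas1 (0.52 ± 0.09), which encodes HIF2, rose, and Hif1a (0.02 ± 0.08) was not called. The HIF core letters ACGTG, searched on both strands, were present in 9 of 13 RefSeq windows of the fallen hypoxia targets, 3 of 6 of the risen ones and 8 of 15 of those not called. They were present in 10 of 21 windows of the fallen glycolytic genes, 2 of 4 of the risen one and 7 of 13 of those not called, against 19.6% of all windows. By gene, they were in 8 of 10 fallen, 3 of 5 risen and 8 of 12 uncalled hypoxia targets with a window. For glycolytic genes these counts were 9 of 15, 1 of 1 and 5 of 9. The windows of Bnip3 and Ldha are shown because both genes fell and their windows hold the letters, in capitals. Where CACGTG is capitalised, a match on each strand overlaps.
Bnip3 promoter, chr7:138909457-138909756, minus strand: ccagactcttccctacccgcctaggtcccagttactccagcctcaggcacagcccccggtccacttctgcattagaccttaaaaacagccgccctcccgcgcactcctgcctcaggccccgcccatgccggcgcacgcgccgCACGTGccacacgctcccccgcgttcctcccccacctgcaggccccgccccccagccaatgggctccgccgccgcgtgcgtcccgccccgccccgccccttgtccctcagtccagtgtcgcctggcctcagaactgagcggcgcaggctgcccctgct
Ldha promoter, chr7:46845554-46845853, plus strand: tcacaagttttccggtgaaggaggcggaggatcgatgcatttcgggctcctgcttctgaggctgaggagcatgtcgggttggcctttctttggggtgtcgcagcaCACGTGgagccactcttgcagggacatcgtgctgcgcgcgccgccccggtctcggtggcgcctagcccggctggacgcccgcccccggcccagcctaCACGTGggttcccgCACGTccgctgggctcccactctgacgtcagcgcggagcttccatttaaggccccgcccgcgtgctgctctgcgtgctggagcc

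A further 3 motifs were searched in the same windows. The GC motif of Smad1 and Smad5, GGCGCC, the same on both strands, was in 1 of 5 windows of the risen BMP members, 0 of 1 of the fallen and 8 of 16 of those not called, against 11.9% of all windows. The octamer ATGCAAAT, searched on both strands, was in 0 of 1 windows of the risen pluripotency factors, 1 of 15 of the fallen and 0 of 13 of those not called, against 1.74% of all windows. The sterol element TCACNCCAC, searched on both strands, was in 0 of 3 windows of the risen cholesterol genes, 0 of 11 of the fallen and 1 of 13 of those not called, against 1.24% of all windows.

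Sterol and fatty acid genes fell in part. Of 26 genes of cholesterol synthesis and its control 11 fell and 3 rose. Idi1, isopentenyl diphosphate isomerase, had a change of -1.20 ± 0.08 (adjusted p = 2.4e-09), followed by Msmo1 (-0.93 ± 0.10), Fdps (-0.67 ± 0.08) and Dhcr7 (-0.51 ± 0.10). The early enzyme gene Hmgcs1 (-0.14 ± 0.08) was not called, while Scap (0.95 ± 0.08) and the exporter Abca1 (0.88 ± 0.08) rose. Of 20 fatty acid genes 9 fell, such as Scd1 (-0.77 ± 0.10), Fads1 (-0.59 ± 0.10) and Acly (-0.38 ± 0.08), and 3 rose. Serine synthesis and amino acid stress genes had 12 falls and 4 rises in 34, with Phgdh (-0.71 ± 0.08), Psph (-0.64 ± 0.08) and the arginine transporter Slc7a3 (-1.33 ± 0.08) lower and Atf5 (0.96 ± 0.11) higher. Of 91 respiratory chain genes 15 fell and 4 rose.

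Imprinted genes, read from 1 parental copy, rose in 12 of 33 cases with none called lower (1 at an unadjusted p under 0.05, limma). Igf2, the fetal growth factor, measured 8.18, 8.26, 8.11, 8.44 and 8.43 on the Nanog RNAi arrays, against 5.98, 5.87, 6.03, 5.83 and 5.88 on the vector arrays. It rose by 2.37 ± 0.08 (adjusted p = 5.8e-14) at its brightest probe set, whereas its other probe set had a change of 0.11 and was not called. Cdkn1c, a growth inhibitor, measured 8.07, 8.06, 7.95, 7.88 and 8.34 on the Nanog RNAi arrays, against 6.56, 6.78, 6.89, 6.68 and 6.65 on the vector arrays. It rose by 1.35 ± 0.09 (adjusted p = 6.8e-10), and Plagl1 (1.24 ± 0.08), Sgce (1.06 ± 0.08) and Peg3 (0.82 ± 0.08) rose too, while Meg3 (-0.03 ± 0.07), Mest (0.11 ± 0.07) and Snrpn (-0.09 ± 0.11) were not called. Germline genes moved in both directions, with 9 higher and 8 lower of 30. Stk31 (1.32 ± 0.10) and Ddx4 (1.03 ± 0.09), a germ cell helicase, rose. Genes of meiotic chromosomes fell, namely Smc1b (-1.01 ± 0.08), Stag3 (-1.01 ± 0.11) and Sycp3 (-1.02 ± 0.10), as did the receptor Kit (-1.14 ± 0.11).

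Primitive endoderm genes rose in part, 10 of 29 with 3 lower. The endoderm factors Gata6 (0.66 ± 0.13), Sox17 (0.60 ± 0.14), Foxa2 (0.64 ± 0.09) and Foxa1 (1.09 ± 0.16) rose, while Gata4 (0.20 ± 0.10), Sox7 (-0.15 ± 0.10) and Pdgfra (0.14 ± 0.10) were not called. Basement membrane genes had 10 rises and 2 falls in 26, including Col4a1 (0.55 ± 0.10) and Col4a2 (0.58 ± 0.10), the chains of type IV collagen, and the integrins Itga3 (0.83 ± 0.09) and Itgb4 (0.77 ± 0.11). The laminin genes Lama1 (0.04 ± 0.11), Lamb1 (0.08 ± 0.07) and Lamc1 (0.04 ± 0.08) were not called. In the list of calcium-binding S100, annexin and galectin genes 9 rose and 1 fell of 33, with S100a6 (2.47 ± 0.10), Anxa3 (2.59 ± 0.12), Anxa1 (1.74 ± 0.12) and Lgals1 (1.30 ± 0.08) ahead.

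**Figure D4:**
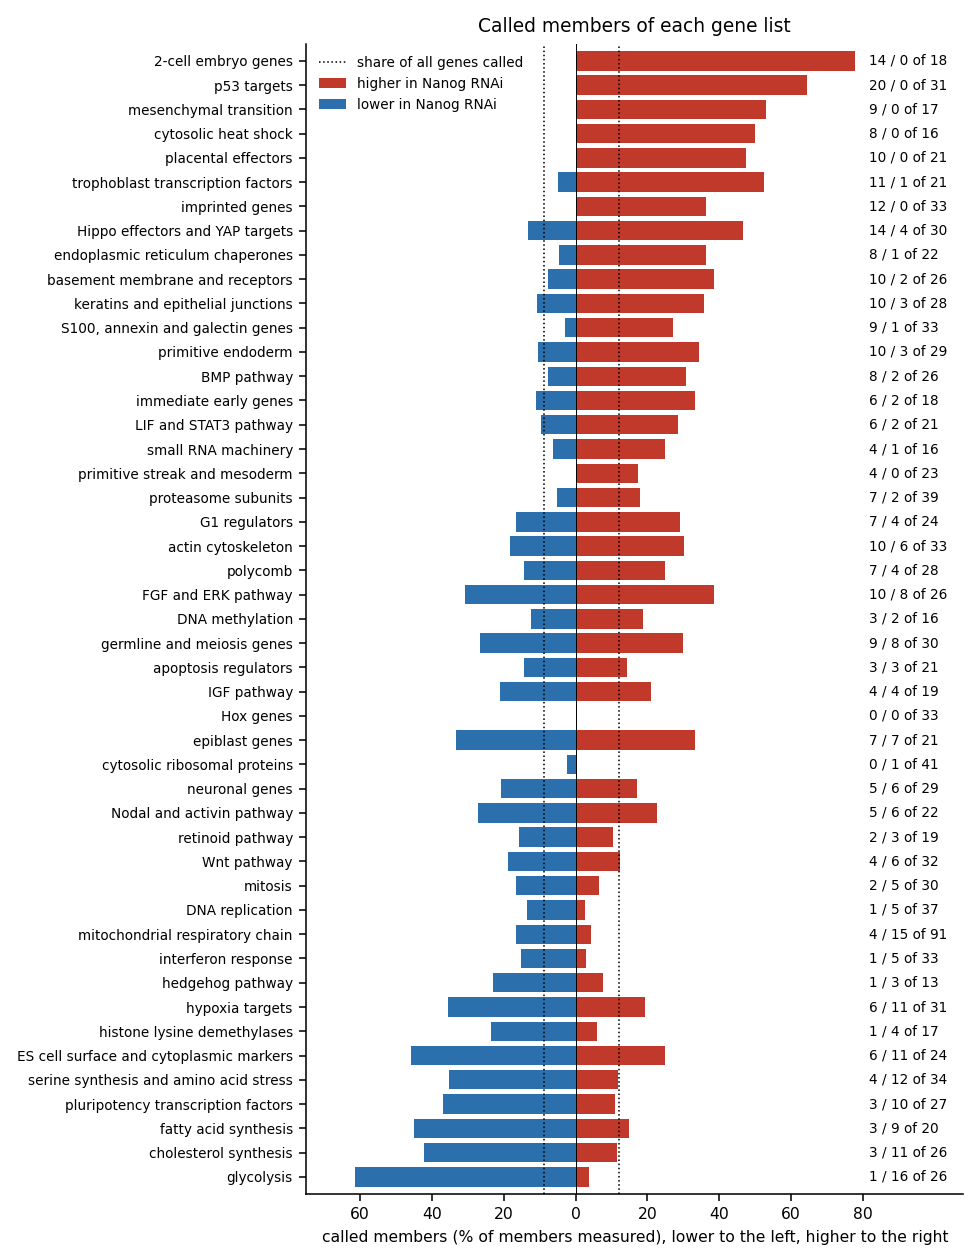
Share of measured members called lower (blue, left) and higher (red, right) after Nanog RNAi for 47 gene lists, in percent of the members measured, with higher / lower of measured members at the right and dotted lines at the shares of all genes called, 8.77% lower and 12.1% higher. The lists of 2-cell embryo genes and p53 targets reach furthest to the right and glycolysis furthest to the left.

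Several groups gave few calls or split evenly. No Hox gene of 33 was called in either direction by limma, with 3 higher and 1 lower at an unadjusted p under 0.05. Of 41 ribosomal protein genes 1 fell, Rps25 (-0.52 ± 0.09), and none rose (none at an unadjusted p under 0.05 either). Mesoderm markers gave no call in 4 genes (1 lower at an unadjusted p under 0.05, limma), and of 5 neural markers 1 rose and 2 fell. Primitive streak and mesoderm genes had 4 rises and no fall in 23 (3 lower at an unadjusted p under 0.05), neuronal genes 5 rises and 6 falls in 29, and epiblast genes 7 of each in 21. Among epiblast genes Igfbp3 (1.42 ± 0.09) and Gbx2 (1.03 ± 0.12) rose and Zic5 (-1.72 ± 0.09) and Sox4 (-0.70 ± 0.08) fell. In the interferon response 1 of 33 rose and 5 fell, with the transmembrane genes Ifitm1 (-1.14 ± 0.09), Ifitm2 (-1.11 ± 0.08) and Ifitm3 (-0.53 ± 0.07) lower and the sensors and effectors Ifit1 (0.10 ± 0.08), Mx1 (0.13 ± 0.08) and Ifih1 (0.16 ± 0.09) not called. Small RNA machinery, which processes hairpins, leaned towards rises, with 4 rises and 1 fall in 16. Tarbp2 (0.43 ± 0.08), Tnrc6b (0.35 ± 0.09), Dgcr8 (0.30 ± 0.08) and Xpo5 (0.27 ± 0.07) rose and Tnrc6c (-0.50 ± 0.08) fell. Dicer1 (0.08 ± 0.08) and Ago2 (-0.04 ± 0.07) were not called. Of 16 DNA methylation genes 3 rose and 2 fell. The demethylases Tet1 (-0.67 ± 0.08) and Tet2 (-0.88 ± 0.10) were the ones that fell, and the DNA methyltransferase Dnmt3b (-0.03 ± 0.08) was not called. Polycomb genes had 7 rises and 4 falls in 28, with Bmi1 (1.32 ± 0.10) higher and Rnf2 (-0.63 ± 0.07) lower.

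Of the cell cycle lists the G1 regulators had the most calls. There 7 rose and 4 fell of 24, with Cdkn1c, Myc and Cdkn2b (0.72 ± 0.13) higher and Ccnd1 (-0.89 ± 0.09), cyclin D1, and Cdkn1b (-0.71 ± 0.11) lower. DNA replication genes had 1 rise and 5 falls in 37, and mitosis genes 2 and 5 in 30.

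Between Nanog RNAi and Pou5f1 RNAi 13282 probe sets were called (29.5%). Nanog itself averaged 9.70 in Pou5f1 RNAi cells, against 9.29 in Nanog RNAi cells and 11.09 in vector cells. Of the 30 genes with the largest rises 27 were called, 18 higher and 9 lower after Nanog RNAi, and of the 30 with the largest falls 24 were called, 8 higher and 16 lower. Set against the same vector arrays, 21 of these 30 rises and 25 of these 30 falls were also called in the same direction after Pou5f1 RNAi. These genes were chosen on the same Nanog RNAi arrays, so this is a description. Ccn2 was higher after Nanog RNAi, by 2.94 ± 0.07 (adjusted p = 1e-16), as were Dst and Mep1b. Krt8 (-3.30 ± 0.10 (adjusted p = 8.1e-16)), Igf2 (-3.95 ± 0.09 (adjusted p = 1.9e-17)) and Nrk (-3.55 ± 0.17 (adjusted p = 7.9e-13)) were lower after Nanog RNAi. Of 28 keratin and junction genes 0 were higher and 20 lower than in Pou5f1 RNAi cells, and of 37 DNA replication genes 30 were higher and 1 lower. Of all genes 18.6% were higher and 18.8% lower in that comparison. S100a6 differed by 0.01 ± 0.10 (adjusted p = 0.98) and Perp by -0.15 ± 0.09 (adjusted p = 0.23), neither of which was called.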

How the data were processed

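Total RNA of E14TG2a cells was hybridised to Affymetrix Mouse Genome 430 2.0 arrays. The deposited log2 values are, per the submitters' processing notes, RMA values (background-corrected, normalized between arrays and summarised over the probes of a probe set), with the version not given in the sources used here. RMA was run by the authors over arrays not stated, and levels near background are compressed. The 64 AFFX controls among 45101 probe sets were left out. Of the remaining 45037, 34945 carried exactly 1 gene name in the platform's gene table, 932 several and 9160 none, which gave 18193 genes. The number of arrays limits the precision.

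A model of the 14 RNAi arrays by group, without covariates, was fitted in limma 3.58.1 (R 4.3.3, moderated by eBayes), and contrasts were called at a Benjamini-Hochberg adjusted p under 0.05 over all probe sets. Changes are log2 differences ± standard error, and SDs are over 5 arrays. The genes named are Nanog, Pou5f1, the 30 largest called rises and 30 largest falls carrying 1 gene name (clone and predicted names excluded) and with groups that do not overlap (most changed probe set), and list members (probe set of highest mean). List members are the called ones of smallest p, up to 6 in each direction, and others that complete a pathway. Any further ones, such as members that were not called, were chosen after their values were seen. The 53 gene lists and their members were chosen with earlier results of these data known. Lists are described by counts and medians, with no set test.

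Same-numbered Nanog RNAi and vector arrays deviated together at r of 0.1685, 0.2013, 0.089, 0.4373 and 0.3898. Differently numbered arrays did so at -0.3852 to 0.2499. Nanog RNAi replicate 3 with vector replicate 1 (0.2499) exceeded the same-numbered values of 0.1685, 0.2013 and 0.089. These values do not tell pairing by number apart from the split between arrays 1 to 3 and arrays 4 and 5. The labels do not say that the numbers pair the arrays, and the main fit left them out. A replicate block was fitted as an alternative. Alternatives were the 10 arrays alone, a replicate block, quantile normalization, median centring, a trended robust prior, a filter on level, each array left out and other probe sets per gene. Separate fits of arrays 1 to 3 and of arrays 4 and 5, and a term for that split, were added after seeing the data. The limma script was tested on simulated data. Promoter windows came from RefSeq (GRCm38.p6), 32851 windows of 27025 genes. The 2-colour arrays of the series were not used. Tables and figures were made with Python 3.11.15, pandas 2.3.3 and matplotlib 3.10.9.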

Additional observations from a re-analysis of the deposited data

Results flagged for a closer look

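For 310 probe sets of the largest changes and of list members followed singly, the gap between the outermost array and the nearest other array of its group was divided by the range of the group (Dixon's ratio, 5 arrays in each). Of 620 groups 33 passed the critical value of Dixon's test, 0.71 for 5 arrays, and chance alone passes about 1 in 20. Nanog RNAi replicate 5 held 17 of these 33, and its score on the first principal component was 39.4 against 23.9 to 26.9 on the other Nanog RNAi arrays. Nanog RNAi replicate 2 was lower than the other 4 arrays of its group for Amotl2 (9.38, ratio 0.795) and Eno2 (3.42, ratio 0.733). Nanog RNAi replicate 3 was lower than the other 4 arrays of its group for Rps25 (7.89, ratio 0.758). Nanog RNAi replicate 4 was higher than the other 4 arrays of its group for Pgk1 (11.87, ratio 0.751) and Tdgf1 (11.38, ratio 0.710). Nanog RNAi replicate 4 was lower than the other 4 arrays of its group for Col4a1 (9.11, ratio 0.799) and Klf4 (8.98, ratio 0.818). Nanog RNAi replicate 5 was higher than the other 4 arrays of its group for Krt18 (9.71, ratio 0.739), Arg2 (7.84, ratio 0.808), Trim43a (7.54, ratio 0.748), Acvr1b (7.51, ratio 0.766), Bag3 (8.40, ratio 0.777), Cdx2 (5.19, ratio 0.807), Dhcr7 (7.70, ratio 0.719), Fgfr1 (7.99, ratio 0.812), Igfbp2 (10.91, ratio 0.717), Klf2 (10.40, ratio 0.861), Lmna (7.58, ratio 0.720), Pramel6 (7.14, ratio 0.805), Ptpn11 (8.77, ratio 0.716), Scap (8.72, ratio 0.763) and Snai1 (6.57, ratio 0.721). Nanog RNAi replicate 5 was lower than the other 4 arrays of its group for Inhbb (4.83, ratio 0.887) and Zeb2 (3.64, ratio 0.791). Vector replicate 1 was lower than the other 4 arrays of its group for Kdm1a (10.60, ratio 0.846) and Yap1 (9.09, ratio 0.781). Vector replicate 2 was higher than the other 4 arrays of its group for Tead4 (5.43, ratio 0.951). Vector replicate 2 was lower than the other 4 arrays of its group for Krt7 (4.03, ratio 0.894). Vector replicate 3 was higher than the other 4 arrays of its group for Junb (6.79, ratio 0.739). Vector replicate 5 was higher than the other 4 arrays of its group for Id3 (7.62, ratio 0.776), Lefty2 (7.21, ratio 0.823) and Pramel6 (5.76, ratio 0.711). Vector replicate 5 was lower than the other 4 arrays of its group for Itga3 (6.72, ratio 0.725). Levels in parentheses are log2 values of the outlying array. Calls that were lost without a single array are given with the processing alternatives.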

How the results depend on the processing

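Calls of probe sets stood at 6060 with the 10 arrays alone, 7725 after quantile normalization, 6548 after median centring, 7223 with a trended robust prior and 6840 among probe sets of at least median level, against 7017. Called probe sets that were called in opposite directions numbered 0 under every alternative. With the replicate block 8255 were called, 6984 of them shared, and Nanog changed by -1.81. The block moved no call among the 308 values of named genes that were followed. Without single arrays the count was 6160 to 7181, with 458 to 507 at 1 log2 or more and 12456 to 13636 between Nanog RNAi and Pou5f1 RNAi; Nanog changed by -1.85 to -1.77 and Pou5f1 by -0.14 to -0.06.

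With arrays 4 and 5 alone, which leaves 2 arrays in each of these groups, 1592 probe sets were called, 932 higher and 660 lower, and 5422 between the knockdowns. Called members were then 1 higher for pluripotency factors, 3 higher and 7 lower for surface markers, 6 and 3 for FGF, 4 and 0 for BMP, 8 and 1 for Hippo, 5 higher for keratins, 4 for trophoblast factors, 9 for p53 targets and 4 for heat shock, 0 higher and 9 lower for glycolysis, 0 and 4 for hypoxia and 4 lower for cholesterol synthesis. Imprinted genes had 1 lower with the block, quantile normalization, the level filter or the term for the split of arrays, p53 targets 1 lower with the block, and heat shock 1 lower with the robust prior. Trophoblast factors had 2 lower with arrays 1 to 3 or by the most changed probe set, and pluripotency factors 5 higher by the mean of probe sets. Imprinted genes and p53 targets each had 0 to 1 lower when single arrays were left out. In smaller counts single arrays moved Wnt genes to 2 to 4 higher, neuronal genes to 3 to 6 lower, S100 and annexin genes to 1 to 3 lower, basement membrane genes to 1 to 3 lower, DNA replication genes to 0 to 2 higher, mitosis genes to 1 to 2 higher and 3 to 5 lower Hox genes to 0 to 1 higher, histone demethylases to 0 to 2 higher, hedgehog and interferon genes each to 1 to 2 higher, respiratory chain genes to 2 to 4 higher, neural markers to 1 to 2 lower, endoplasmic reticulum chaperones and small RNA genes each to 1 to 2 lower, and primitive endoderm markers, mesenchymal genes and primitive streak genes each to 0 to 1 lower. The cause of these moves was not tested.

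Of 308 values of named genes 59 lost their call with arrays 4 and 5 alone, 11 with arrays 1 to 3 alone and 2 with the 10 arrays alone, and none reversed. Bmp2, Sox2, Spry1, Slc2a3, Inhbb, Foxd3, Tdgf1, Bag3, Fgfr1, Insig1 and Vegfa lost it in both subsets of arrays. Among single genes quantile normalization added calls of Bmpr1a (-0.21) and Tbx3 (-0.18), and the robust prior those of Hspa8 (0.13) and Pgam1 (-0.16). Acvr1, Foxd3, Inhbb and Tdgf1 lost their call without at least 1 array, as described above. Bag3, Esrp1, Fgfr1, Insig1, Spry4 and Vegfa were called and likewise lost their call without at least 1 array, and their changes are not described above. Without 1 array these changes ranged from 0.27 to 0.51, -0.59 to -0.41, 0.25 to 0.41, -0.57 to -0.40, 0.34 to 0.47 and -0.38 to -0.28, in that order. Vegfa lost its call in most of these fits, without Nanog RNAi replicate 1, 3, 4 or 5 or vector replicate 1, 3 or 4.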

Other observations

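Genes of the actin cytoskeleton moved in both directions, with 10 of 33 higher and 6 lower after Nanog RNAi. Lmna (1.01 ± 0.11), a nuclear lamin, Zyx (0.77 ± 0.10) and Tln1 (0.69 ± 0.07), focal adhesion proteins, and Myh9 (0.56 ± 0.09), a non-muscle myosin, rose. Marcks (-1.51 ± 0.09), a membrane-bound actin regulator, Myl9 (-0.76 ± 0.11), Vcl (-0.69 ± 0.07), which encodes vinculin, and Ezr (-0.63 ± 0.08), which encodes ezrin, fell. In the IGF pathway 4 of 19 rose and 4 fell. Igfbp4 (-0.92 ± 0.11) and Igfbp2 (-0.88 ± 0.08), secreted binders of insulin-like growth factors, fell, whereas Igfbp3 and Hmga2 (1.25 ± 0.09) rose.

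Proteasome genes had 7 rises and 2 falls in 39, all small, as for Psmc2 (0.29 ± 0.07) and Psmc3 (0.29 ± 0.07) of the regulatory particle. Histone lysine demethylases had 1 rise and 4 falls in 17, among them Kdm5b (-0.67 ± 0.07) and Kdm1a (-0.44 ± 0.06). Retinoid genes gave 2 rises and 3 falls in 19, with the retinol dehydrogenase Rdh10 (0.88 ± 0.09) higher and the binding protein Crabp1 (-0.89 ± 0.12) lower.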
